A study of Chrysanthemum x morifolium with 40 samples.

Results

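Roots of the waterlogging-sensitive chrysanthemum cultivar CK were compared between 12 h and 3 h of waterlogging, with 4 libraries at each time, to ask what separates the sustained response from the early one. These 8 libraries are all those with these 2 labels among the 40 of the series, and no measured value took part in choosing them. CK is the cultivar 'zaoxiaoyangju' of Chrysanthemum × morifolium. Both groups came from 8-week-old seedlings of this cultivar that stood in water reaching 2 cm above their upper leaves, and by their labels they differed only in the hours under water. The other groups used below are CK roots at 0 h and at 24 h of the same treatment, and roots of EWT, a tolerant cultivar, at 3 h and 12 h. Each group had 4 libraries, described as biological replicates. Nothing says how many plants went into each, so p-values measure the spread between libraries. In the main linear-model fit that spread, and so each SE, was pooled within groups over all 40 libraries. Whole roots were sampled, so fewer cells of a type and less RNA per cell cannot be told apart. No library is labelled as unflooded at the later times, so the hours under water and the time of day cannot be told apart. The labels and the paper's methods give different temperatures and day lengths for growth, and it was not stated which applied to these plants.

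Oxygen diffuses slowly in water, and flooded roots soon fall back on glycolysis and ethanol fermentation for energy. The first genes to respond in plants are driven by group VII ethylene response factors, which are broken down while oxygen is present, and they include those for alcohol dehydrogenase, pyruvate decarboxylase, plant cysteine oxidase and phytoglobin. When low oxygen lasts, roots usually economise on growth, ribosomes and nutrient uptake, and they express chaperones and detoxifying enzymes that also serve in heat and oxidative stress.

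The libraries at 12 h had fewer fragments on genes than those at 3 h. The paper's range of reads per library over the series was narrower than that of these fragments, and the reason was not tested. Between 3896104 and 4632569 fragments were recovered on genes in each library at 12 h, and between 5567319 and 6716210 at 3 h, and 77158 to 82747 genes were above 0 at 12 h and 89429 to 93189 at 3 h. Genes at a low level were therefore less well measured at 12 h, and a gene at 0 there may have been missed. The 100 most abundant genes took 16.2 to 19.5% of the fragments at 12 h and 11.9 to 14.2% at 3 h. Summed over all genes, the deposited FPKM (fragments per kilobase of gene and per unit of library size) went from a mean of 671514 to 987527, a 1.47-fold difference, which is the scale against which sums over gene groups have to be read. Among root markers, the summed level of 206 genes was 3489.4 to 4801.5 FPKM at 3 h and 8228.2 to 11850.7 at 12 h, but of the 119 tested 14 were called higher and 45 lower. The proline-rich DC2.15 proteins made up most of that sum at 12 h, with 1729.6 to 2765.3 FPKM at 3 h and 6291.0 to 9416.8 at 12 h, and 5 of their 29 tested genes were called higher and 13 lower. The Casparian strip membrane proteins fell from 44.2 to 58.5 FPKM to between 6.8 and 18.7, with 0 higher and 12 lower of 17. High-affinity nitrate transporters 2 fell from 59.8 to 114.2 FPKM to between 9.2 and 12.7, with 0 higher and 11 lower of 18. The aquaporins TIP2 and PIP had 9 higher and 9 lower of 46, and SHORT-ROOT and SCARECROW 0 and 0 of 9. That of 320 green leaf genes lay between 139.6 and 166.9 FPKM at 3 h and between 227.5 and 401.6 at 12 h, and of the 116 tested 10 were called higher and 3 lower. By the same rule, 9.54% of all tested genes were called higher and 13.2% lower. The leaf share of higher calls was near that over all tested genes. Within it, the chlorophyll a-b binding proteins were at 41.1 to 54.2 FPKM at 3 h and 32.0 to 67.8 at 12 h. The photosystem subunits were at 68.5 to 86.3 and 133.0 to 251.8 FPKM, and the small chains of Rubisco at 18.1 to 40.2 and 56.9 to 93.3. The part of these markers in the changes below was not tested. The fourth library at 12 h stood apart. Its gene counts differed from those of the first at 12 h with a chi-square of 10.55 per degree of freedom, whereas the other 3 differed among themselves with 3.39 to 4.87. Without it, 9297 genes were called higher and 12804 lower, against 8538 and 11806 with it.

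At 12 h, 20344 of 89517 tested genes (22.7%) passed an adjusted p of 0.05 with a fold change of at least 2 in limma. Of these, 8538 were higher at 12 h than at 3 h (9.54% of those tested) and 11806 were lower (13.2%). All 4 libraries at 12 h lay above all 4 at 3 h for 9567 tested genes (10.7%), and all 4 lay below for 10913 (12.2%). With the study's own threshold on the unadjusted p, 25827 genes (28.9%) passed. The direction differed with the level of the gene, in a split chosen after the values were seen. Among 1012 genes with a mean of at least 100 FPKM over the 40 libraries, 415 were called higher and 45 lower, and their median log2 fold change was 0.87. Among 31804 genes with a mean under 1 FPKM, 1500 were called higher and 3234 lower, with a median of -0.18. Of the genes called lower, 1039 were at 0 in all 4 libraries at 12 h, and of those called higher, 415 were at 0 in all 4 at 3 h. The split between rises and falls depended on the pseudocount and on scaling. With a pseudocount of 1 in place of 0.1, 6677 genes were called higher and 5569 lower. The deposited values were scaled so that the median log2 fold change over all tested genes was -0.11. Scaling by all fragments moved it to -0.47 and left 5465 genes called higher and 19340 lower of 91463 tested. The lists and roles below are on the deposited scale unless the other scaling is named. Their counts are to be read beside the shares over all tested genes, 9.54% higher and 13.2% lower. Under the other scaling, they are to be read beside the 5465 and 19340 of 91463.

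For description, 22 lists of genes were formed by role from the authors' protein annotation, which names each gene after its best protein match in another species. In 8 of the 22 lists more members were called higher than lower. The lists that leaned upward were the heat shock proteins and factors, DREB factors, clock genes, NAC factors and oxidant scavengers, and with smaller medians fermentation, oxygen sensing and nitrogen remobilisation. Of these, the medians of oxidant scavenging, fermentation, oxygen sensing and nitrogen remobilisation (0.38, 0.24, 0.15 and 0.23) became -0.01, -0.03, -0.27 and -0.10 under the scaling by all fragments. Those with the lowest medians were cell division, phenylpropanoid and Casparian strip genes, ribosomal proteins and class III peroxidases.

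**Figure D1:**
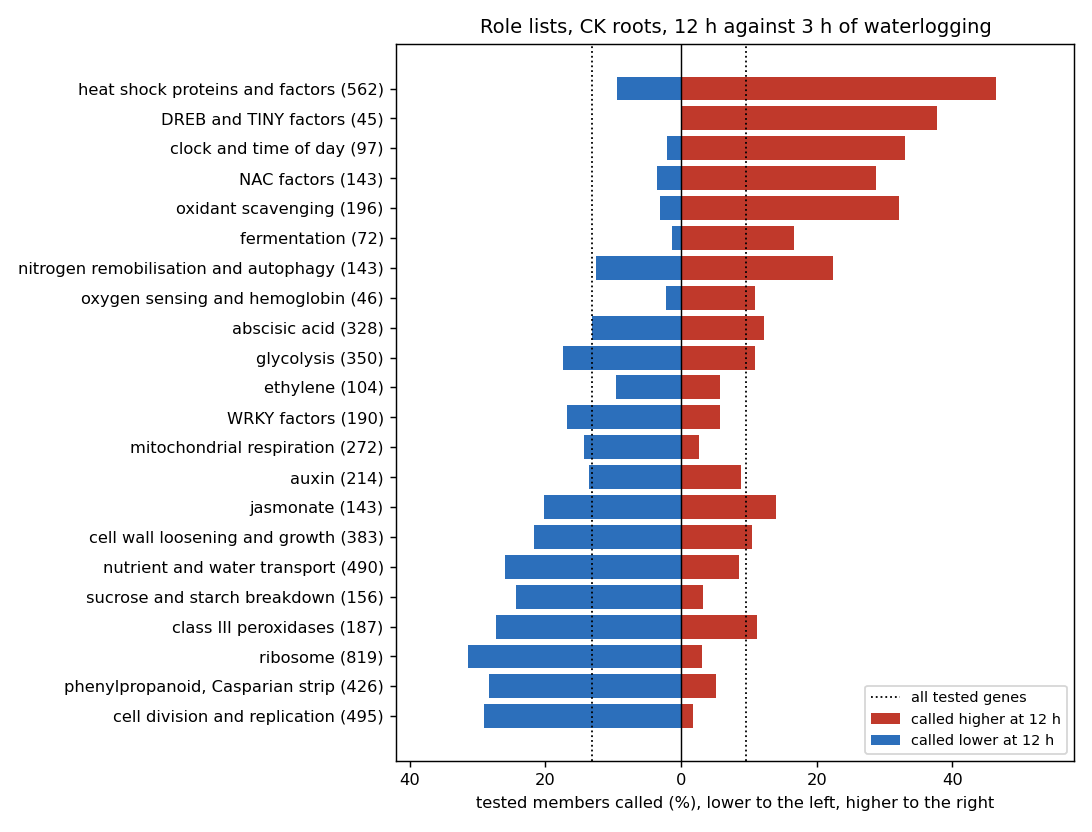
Share of the tested members of each role list, with their number in brackets, that were called higher (red, to the right) or lower (blue, to the left) at 12 h than at 3 h in CK roots, in percent. Lists are ordered by their median log2 fold change, and dotted lines mark the shares over all tested genes, 9.54% higher and 13.2% lower.

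The largest median change of any role was that of the small heat shock proteins, chaperones that hold unfolding proteins in solution. Of 143 tested members, 116 were called higher at 12 h and 0 lower, with a median log2 fold change of 4.16 against -0.11 over all tested genes. Under the scaling by all fragments 113 were higher and 0 lower. Summed over the annotated members, their level was 511, 1209, 943 and 454 FPKM in the 4 libraries at 3 h and 20840, 21390, 19530 and 7966 FPKM at 12 h. The groups did not overlap, and the fourth library at 12 h was the lowest of its group. Relative to 0 h, the median member stood at 2.57 and 2.26 on the log2 scale in replicates 2 and 3 at 3 h and at 0.69 and 0.35 in replicates 1 and 4, and it was at 6.53, 6.81, 6.4 and 5.28 at 12 h. Leaving out the fourth library at 12 h left 114 members called higher and raised the median to 4.61.

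The most abundant of the list, an 18.2 kDa class I protein (evm_TU_scaffold_222_33, chromosome 2), measured 59.6, 140, 117.4 and 48.3 FPKM at 3 h and 2388, 2441, 2075 and 822.6 FPKM at 12 h. All libraries at 12 h were above all at 3 h, by a log2 fold change of 4.42 ± 0.32 (SE, n = 4 libraries a group, limma adjusted p = 1.4e-12). A 17.8 kDa class I protein (evm_TU_scaffold_1762_42, chromosome 7) was at 0.721, 3.87, 1.30 and 1.01 FPKM at 3 h and at 297.5, 228.7, 165.5 and 36.97 at 12 h. It changed by 6.58 ± 0.73 (log2, SE, n = 4, limma adjusted p = 1.26e-08), and the fourth library was again the lowest at 12 h. A second 17.8 kDa copy (evm_TU_scaffold_11464_148, chromosome 4) changed by 6.44 ± 0.72. The 17.3 kDa protein (evm_TU_scaffold_545_206, chromosome 3) had 2 fragments in all at 3 h and 134 at 12 h, a ratio of 125 after scaling, with a 95% counting interval from 33.9 to 1040. Such intervals cover counting error only, and PCR copies are not independent molecules. The two-sided exact permutation test of 4 libraries against 4 gave p = 0.0286 for each of these genes, the smallest value it can give. The largest rises over all genes were taken only where the groups did not overlap. For genes named that way this p was fixed in advance and gives no support. Copies with near-identical sequence are common in this polyploid genome, and how fragments shared between them were assigned was not stated, so the split among copies is uncertain.

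The chaperones that act with the small ones followed in part. Of 53 tested Hsp90 genes, 25 were called higher and 1 lower (median 1.02 on the log2 scale), and their sum went from 425 to 942 FPKM at 3 h to between 1979 and 4525 at 12 h. Hsp101 and ClpB proteins, which pull apart aggregates, had 14 higher and 3 lower of 44 with a median of 0.23 that became 0.00 under the scaling by all fragments, and their sum went from a mean of 291 to 2380 FPKM. Hsp70 was divided, with 69 higher and 42 lower of 242, a median of 0.00 and a sum that went from a mean of 2220 to 6900 FPKM. Among those that fell was Heat shock 70 kDa protein 16 (evm_TU_scaffold_7538_104), with 141 fragments at 3 h and 2 at 12 h. The heat stress transcription factors, which switch on chaperone genes, had 37 higher and 7 lower of 80 with a median of 0.88.

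**Figure D2:**
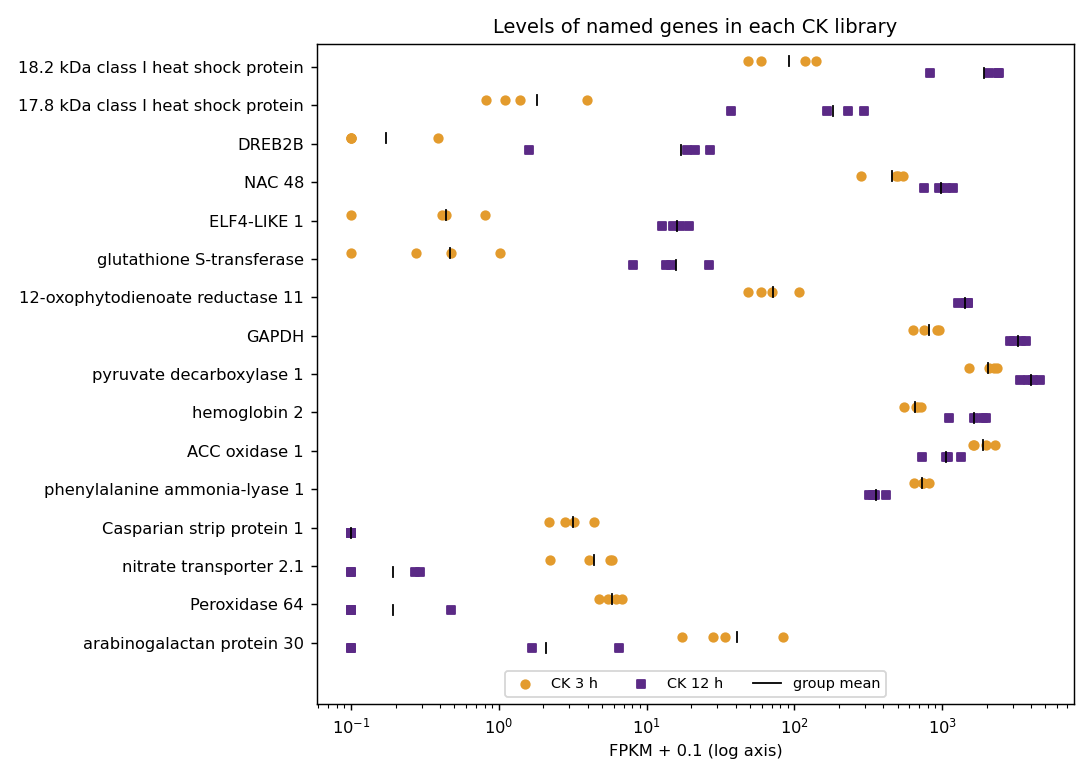
FPKM + 0.1 on a log axis for 16 named genes in each of the 4 CK libraries at 3 h (orange circles) and the 4 at 12 h (purple squares), with group means as black ticks. The first 10 genes lay further to the right at 12 h and the last 6 further to the left, and the lowest square of the heat shock proteins and of DREB2B is the fourth library at 12 h.

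Of the transcription factor lists, DREB and NAC leaned upward and WRKY did not. DREB factors bind the dehydration-responsive element in promoters of drought and cold genes. Of 45 tested, 17 were called higher and 0 lower, with a median log2 fold change of 0.94, and 13 were higher under the scaling by all fragments. Without the fourth library at 12 h, 16 were higher and the median was 0.77. The 2 genes annotated as TINY were below the level needed for testing. A match to rice DREB2B (evm_TU_scaffold_1212_114, chromosome 10) was at 0, 0.289, 0 and 0 FPKM at 3 h and at 26.5, 21.2, 18.6 and 1.5 FPKM at 12 h. With 2 fragments at 3 h and 213 at 12 h, the scaled ratio was 199 (95% counting interval 54.3 to 1650), and the fourth library at 12 h was again low. The most abundant member, a match to DREB1A (evm_TU_scaffold_692_102), averaged 286.5 ± 64.5 FPKM at 3 h and 415.9 ± 109 at 12 h (SD, n = 4) with overlapping groups and did not pass (limma adjusted p = 0.187).

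NAC domain proteins, a large plant family with members in stress and senescence, had 41 called higher and 5 lower of 143, with a median log2 fold change of 0.66. Under the scaling by all fragments 26 were higher and 10 lower, and 3 were lower when replicate 1 or 4 at 3 h was left out. NAC domain-containing protein 48 (evm_TU_scaffold_431_56, chromosome 6), the most abundant, was at 545.1, 487.3, 503.3 and 281.0 FPKM at 3 h and at 1056, 1192, 949.1 and 756.7 FPKM at 12 h. The groups did not overlap, and the log2 fold change was 1.15 ± 0.17 (SE, n = 4, limma adjusted p = 4.44e-06), although it was 0.72 and not called under the scaling by all fragments, 0.93 without the fourth library at 3 h, and not called in the fit on the 8 CK libraries alone (limma adjusted p = 0.0755). NAC domain-containing protein 90 (evm_TU_scaffold_1398_144) averaged 2.92 FPKM at 3 h and 0.571 at 12 h (log2 fold change -2.16, limma adjusted p = 0.0232), a call that was lost when replicate 1 or 4 at 3 h or replicate 2 at 12 h was left out (log2 fold changes of -1.97, -2.11 and -1.93). WRKY factors, known from defence, had 11 higher and 32 lower of 190, beside 9.54% and 13.2% over all genes. Under the scaling by all fragments 5 were higher and 59 lower, and with a pseudocount of 1, 9 were higher and 9 lower. Their most abundant member, WRKY 40 (evm_TU_scaffold_1406_75), measured 334.5 to 573.5 FPKM at 3 h and 633.3 to 858.4 at 12 h, a log2 fold change of 0.60 that stayed under the 2-fold limit.

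Genes of the circadian clock differed between the 2 times, which may also have differed in the time of day. Of 97 tested, 32 were called higher at 12 h and 2 lower, with a median log2 fold change of 0.69, which became 29, 4 and 0.27 under the scaling by all fragments. Among them were 11 of 22 REVEILLE factors, which resemble the morning regulators of the clock, 9 of 27 pseudo-response regulators and 3 of 6 ADAGIO proteins, which sense blue light. None of 4 LHY and CCA1 and 14 GIGANTEA genes passed, with medians of -0.46 and 0.45. ELF4-LIKE 1 (evm_TU_scaffold_1016_69, chromosome 14) measured 0, 0.31, 0.338 and 0.70 FPKM at 3 h and 19.2, 12.5, 15 and 16.6 at 12 h, with no overlap and a log2 fold change of 5.51 ± 0.50 (SE, n = 4, limma adjusted p = 2.33e-10). REVEILLE 6 (evm_TU_scaffold_692_355) was at 34.4 to 47.3 FPKM at 3 h and at 73.3 to 90.3 at 12 h, a log2 fold change of 0.99 that lay just under the 2-fold limit (limma adjusted p = 7.63e-05) and passed it with voom and without replicate 1 or 4 at 3 h or replicate 1 at 12 h (1.04, 1.04 and 1.06). The part of the time of day in these and the other changes was not tested.

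The fermentation genes were already high at 3 h. Relative to 0 h, the median of the 72 tested members was 3.87, 3.95, 4.39 and 3.22 (log2) in the libraries at 3 h and 4.30, 3.21, 3.53 and 4.01 at 12 h, so the groups overlapped. Between 3 h and 12 h, 12 were called higher and 1 lower, with a median log2 fold change of 0.24 that became -0.03 under the scaling by all fragments. Pyruvate decarboxylase 1 (evm_TU_scaffold_535_88, chromosome 12), the first enzyme of ethanol fermentation, averaged 22.2 FPKM at 0 h. It measured 2336, 2231, 2069 and 1519 FPKM at 3 h and 3808, 4594, 4114 and 3369 at 12 h. Every library at 12 h was above every one at 3 h, but the log2 fold change of 0.97 ± 0.20 lay just under the 2-fold limit (SE, n = 4, limma adjusted p = 0.000341), and it passed that limit without replicate 1 or 2 at 3 h or replicate 4 at 12 h (1.04, 1.02 and 1.05). A second gene, matched to rice pyruvate decarboxylase 2 (evm_TU_scaffold_2248_145), had 2 fragments at 3 h and 56 at 12 h, a scaled ratio of 52.2 (95% counting interval 13.8 to 442), at a mean of only 2.13 FPKM. Alcohol dehydrogenases, the second enzyme, had 4 higher and 1 lower of 25, and their sum went from a mean of 7580 to 14700 FPKM. Their median log2 fold change of 0.25 became -0.17, with 1 higher and 5 lower, under the scaling by all fragments, and that of the pyruvate decarboxylases went from 0.34 to -0.01. Glutamate decarboxylase, which makes the non-protein amino acid GABA, had 3 higher and 0 lower of 5 with a median log2 fold change of 1.12.

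Of 46 oxygen-sensing and hemoglobin genes, 5 were called higher and 1 lower, with a median log2 fold change of 0.15 that became -0.27 under the scaling by all fragments. None of 13 plant cysteine oxidases, which mark the group VII factors for breakdown, passed between 3 h and 12 h, with a median of -0.20, whereas their median was 2.62 at 3 h against 0 h. Non-symbiotic hemoglobin 2 (evm_TU_scaffold_415_128, chromosome 9), a scavenger of nitric oxide, measured 687.5, 663.7, 715.2 and 555.1 FPKM at 3 h and 1979, 1875, 1646 and 1106 at 12 h, after 0.294 at 0 h. The groups did not overlap, and the log2 fold change was 1.31 ± 0.40 (SE, n = 4, limma adjusted p = 0.0124), a call that was lost with a pseudocount of 0.01 (limma adjusted p = 0.29), under the scaling by all fragments (log2 fold change 0.88) and in the fit on the 8 CK libraries alone (limma adjusted p = 0.0996). The group VII factor RAP2-3 (evm_TU_scaffold_1610_52, chromosome 25) was at 45.2, 31.7, 54.6 and 33.7 FPKM at 3 h and at 125.0, 163.4, 106.4 and 85.9 at 12 h, a log2 fold change of 1.54 ± 0.26 with no overlap (SE, n = 4, limma adjusted p = 2.06e-05). Of the 19 tested group VII factors, 3 were called higher and 1 lower, and their median of 0.06 became -0.37 under the scaling by all fragments.

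Glycolysis was mixed. Of 350 tested genes, 38 were called higher and 61 lower, with a median of -0.12. Scaling by all fragments gave 23 higher and 87 lower with a median of -0.52. The abundant cytosolic glyceraldehyde-3-phosphate dehydrogenase (evm_TU_scaffold_9671_113, chromosome 4), the step of glycolysis that yields NADH, measured 926.5, 957.0, 756.0 and 639.5 FPKM at 3 h and 3087, 3419, 3697 and 2863 at 12 h. It changed by 2.01 ± 0.14 with no overlap (log2, SE, n = 4, limma adjusted p = 1e-12), but did not pass in the fit on the 8 CK libraries alone (limma adjusted p = 0.0874). A GAPC2 copy (evm_TU_scaffold_926_216) was at 0 to 0.284 FPKM at 3 h and at 1.96 to 5.64 at 12 h (log2 fold change 3.81). An enolase (evm_TU_scaffold_110_116) went the other way, from 156 fragments at 3 h to 2 at 12 h, a scaled ratio of 41.8 (95% counting interval 11.4 to 348). Glyceraldehyde-3-phosphate dehydrogenases as a whole had 12 higher and 9 lower of 49, and pyruvate kinases 2 higher and 11 lower of 56 (0 and 17 under the scaling by all fragments).

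Of 156 genes that break down sucrose and starch, 5 were called higher and 38 lower with a median of -0.51. Under the scaling by all fragments 3 were higher and 53 lower, and 10 were higher and 38 lower without the fourth library at 12 h. With a pseudocount of 1, 3 were higher and 18 lower. Invertases, which split sucrose with water, had 2 higher and 21 lower of 73 with a median of -0.54. A soluble invertase (evm_TU_scaffold_1693_394) had 19 fragments at 3 h and 0 at 12 h, which is at least 3.4-fold lower with 3 fragments over the group as the floor. For sucrose synthase, the energy-saving route, 2 of 25 genes were higher and 3 lower. The most abundant (evm_TU_scaffold_3531_14) measured 1139 to 1629 FPKM at 3 h and 1381 to 1675 at 12 h, a log2 difference of 0.10 ± 0.20 (SE, n = 4, limma adjusted p = 0.784) that became -0.32 under the scaling by all fragments and -0.01 without the fourth library at 3 h. It had averaged 172.5 FPKM at 0 h. Among genes of mitochondrial respiration, 7 were called higher and 39 lower of 272 with a median of -0.28, a share of lower calls near the 13.2% over all tested genes. Without the fourth library at 12 h 12 were higher and 39 lower, and under the scaling by all fragments 5 and 73. The roles differed. Fumarate hydratase, of the citric acid cycle, had 0 higher and 5 lower of 7 with a median of -1.59, and mitochondrial ATP synthase 0 higher and 12 lower of 34 with a median of -0.66. Cytochrome c, which carries electrons to cytochrome c oxidase, had 2 higher and 0 lower of 6 with a median of 1.14. Succinate dehydrogenase had 0 higher and 2 lower of 18 with a median of 0.16, and the subunits of complex I 1 higher and 6 lower of 76 with a median of -0.18.

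Among genes that handle oxidants and reactive compounds, the glutathione S-transferases, which join glutathione to toxic molecules, had the most calls. The list of oxidant scavengers had 63 higher and 6 lower of 196 with a median of 0.38 that became -0.01 under the scaling by all fragments. Of 140 tested transferases, 56 were called higher and 5 lower with a median log2 fold change of 0.72, and their summed level was 1433, 1727, 1503 and 1229 FPKM at 3 h and 9995, 11570, 10010 and 6378 FPKM at 12 h. Without the fourth library at 12 h, 56 transferases were higher and 8 lower, and 10 scavengers were lower in place of 6. A member matched to soybean (evm_TU_scaffold_428_139, chromosome 13) was at 0.372, 0.921, 0 and 0.173 FPKM at 3 h and at 13.5, 26.4, 14.5 and 7.95 at 12 h. It changed by 5.41 ± 0.60 with no overlap (log2, SE, n = 4, limma adjusted p = 1.54e-08). None of 14 catalases passed. Mitochondrial manganese superoxide dismutase (evm_TU_scaffold_1659_209), which removes superoxide, went from 802.3 to 1023 FPKM at 3 h to between 1582 and 1939 at 12 h, and its log2 fold change of 0.96 lay just under the 2-fold limit, or at 1.03 without the first library at 3 h.

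Oxophytodienoate reductases, some of which make jasmonate while others reduce reactive carbonyls, had 14 higher and 1 lower of 31 with a median of 1.20. Most of their summed level at 12 h, a mean of 2280 FPKM, came from 1 gene, Putative 12-oxophytodienoate reductase 11 (evm_TU_scaffold_7442_6, chromosome 14). It measured 59.2, 106.6, 70.6 and 48.1 FPKM at 3 h and 1449, 1491, 1500 and 1288 at 12 h, so that the groups were far apart (log2 fold change 4.39 ± 0.25, SE, n = 4, limma adjusted p = 7.44e-15). Lipoxygenases, which open the pathway, had 3 higher and 17 lower of 56 (1 and 27 under the scaling by all fragments), and allene oxide synthases and cyclases 1 higher and 3 lower of 10.

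The class III peroxidases of the cell wall were divided, with 21 higher and 51 lower of 187 and a median of -0.78. Scaling by all fragments left 10 higher and 78 lower. The most abundant, Peroxidase 47 (evm_TU_scaffold_4926_2, chromosome 27), was at 422.5 to 858.3 FPKM at 3 h and at 1166 to 1849 at 12 h (log2 fold change 1.31, limma adjusted p = 0.000249). That call was lost under the scaling by all fragments, where the log2 fold change was 0.88, and in the fit on the 8 CK libraries alone (limma adjusted p = 0.104). Peroxidase 51 (evm_TU_scaffold_1146_442) changed by 2.90 and Peroxidase 10 (evm_TU_scaffold_5211_46) by -4.52. Peroxidase 64 (evm_TU_scaffold_690_74, chromosome 5), which in Arabidopsis helps to lay down lignin in the Casparian strip, had 190 fragments at 3 h and 2 at 12 h, a scaled ratio of 50.9 (95% counting interval 13.9 to 424).

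Of 426 phenylpropanoid and Casparian strip genes, 22 were called higher and 121 lower at 12 h with a median of -0.85, and 14 and 174 under the scaling by all fragments. The Casparian strip is the ring of lignin around endodermal cells that seals the path between them. Of 17 tested Casparian strip membrane proteins, 12 were called lower and 0 higher, with a median log2 fold change of -2.64, and 15 were lower under the scaling by all fragments. The CASP-like proteins, a related family, had 2 higher and 6 lower of 63 with a median of -0.61 (2 and 18 under that scaling). The summed level of the Casparian strip membrane proteins was 58.5, 44.2, 49.2 and 48.2 FPKM at 3 h and 7.48, 6.76, 18.7 and 13.3 at 12 h, with no overlap. Casparian strip membrane protein 1 (evm_TU_scaffold_7432_59, chromosome 17) was at 2.69, 3.11, 2.09 and 4.34 FPKM at 3 h and at 0 in all 4 libraries at 12 h. With 75 fragments against 0, it was at least 13.4-fold lower by the floor of 3 fragments over the group.

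Phenylalanine ammonia-lyase, which commits phenylalanine to lignin and other phenolics, had 26 lower and 0 higher of 32 with a median of -1.69. The main gene (chromosome 24) measured 745.1, 736.2, 815.7 and 644.0 FPKM at 3 h and 350.0, 340.5, 317.6 and 414.8 at 12 h. The groups did not overlap, and the log2 fold change was -1.05 ± 0.14 (SE, n = 4, limma adjusted p = 3.05e-07), just below the 2-fold limit when replicate 3 of either time was left out. Caffeoyl-CoA O-methyltransferases, a later step, had 17 lower and 0 higher of 39, cinnamoyl-CoA reductases 7 lower and 0 higher of 23 (12 and 0 under the scaling by all fragments), and dirigent proteins, which steer the coupling of phenolics, 27 lower and 1 higher of 98. Cinnamyl alcohol dehydrogenases, which make the lignin alcohols, had 3 higher and 3 lower of 21 with a median of -0.75 (0 and 11 under the scaling by all fragments), and their summed level was 304.9, 343.6, 298.9 and 295.9 FPKM at 3 h and 437.8, 448.4, 375.6 and 414.4 at 12 h. Laccases, which polymerise lignin, had 16 higher and 20 lower of 125, beside 9.54% and 13.2% over all tested genes. Laccase-7 (evm_TU_scaffold_1363_38) went from 0 to 0.662 FPKM at 3 h to between 2.75 and 9.06 at 12 h (log2 fold change 4.01, limma adjusted p = 1.05e-05).

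Of 819 tested ribosomal protein genes, 257 were called lower and 25 higher with a median log2 fold change of -0.84, and 406 lower and 18 higher under the scaling by all fragments. Single abundant genes rose. 60S ribosomal protein L10 (evm_TU_scaffold_3617_66, chromosome 10) measured 238.1, 320.1, 276.5 and 200.5 FPKM at 3 h and 1823, 1844, 2138 and 1613 at 12 h, a log2 fold change of 2.86 ± 0.21 with no overlap (SE, n = 4, limma adjusted p = 1.4e-12). L35-4 (evm_TU_scaffold_2658_15) fell from 30 fragments to 0, at least 5.36-fold. The summed level of the 60S proteins was 12180 to 18520 FPKM at 3 h and 10420 to 14470 at 12 h, which overlapped, while that of the 40S proteins went from between 7704 and 11520 to between 4652 and 7262 without overlap.

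In the cell division list 144 genes were called lower and 9 higher of 495 with a median of -0.97. Under the scaling by all fragments 210 were lower and 7 higher, and without the second library at 3 h 100 were lower and 14 higher. Cyclins of types A, B and D, which drive the cycle, had 31 lower and 4 higher of 70, the MCM proteins that license replication 14 lower and 1 higher of 33, and histones 81 lower and 3 higher of 332, or 133 and 2 under the scaling by all fragments. Histone H4 variant TH011 (evm_TU_scaffold_18_148) was at 7.82, 21.3, 14.9 and 12.9 FPKM at 3 h and at 0, 0, 3.19 and 1.97 at 12 h (log2 fold change -4.72 ± 0.99, SE, n = 4, limma adjusted p = 0.000391). The most abundant histone gene, a match to an H2A variant (evm_TU_scaffold_858_556), was not among them, with 273.8 to 408.7 FPKM at 3 h and 472.7 to 762.9 at 12 h, a log2 fold change of 0.77 that was under the 2-fold limit.

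Wall-loosening genes were divided by family. As a list they had 40 higher and 83 lower of 383, or 37 and 36 with a pseudocount of 1. Xyloglucan endotransglucosylase/hydrolases, which cut and rejoin wall polymers, had 23 higher and 12 lower of 89 with a median of 0.37, which became 15, 15 and 0.00 under the scaling by all fragments. The most abundant (evm_TU_scaffold_4534_21, chromosome 9) measured 483.6, 416.5, 478.3 and 435.6 FPKM at 3 h and 1719, 2305, 1327 and 1011 at 12 h (log2 fold change 1.75 ± 0.27, SE, n = 4, limma adjusted p = 5.8e-06, no overlap). Cellulose synthases had 7 higher and 31 lower of 134, endoglucanases 4 and 24 of 68, and expansins 3 and 6 of 50. Over all tested genes 9.54% were higher and 13.2% lower.

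Among the transport families, more nutrient transporters were called lower than higher. Of 490 tested transport genes, 42 were called higher and 127 lower with a median of -0.49, and 28 and 172 under the scaling by all fragments. Nitrate and peptide transporters had 11 higher and 51 lower of 180, potassium transporters and channels 4 and 26 of 103, ammonium transporters 0 and 6 of 12, and phosphate transporters 5 and 14 of 46. High-affinity nitrate transporter 2.1 (evm_TU_scaffold_94_59, chromosome 21) was at 3.96, 2.13, 5.52 and 5.72 FPKM at 3 h and at 0.195, 0, 0.172 and 0 at 12 h, without overlap. Its 190 fragments against 2 gave a scaled ratio of 50.9 (95% counting interval 13.9 to 424). Aquaporins, the water channels, had 19 higher and 20 lower of 117 (11 and 34 under the scaling by all fragments). TIP1-1 (evm_TU_scaffold_18_33), the most abundant, was at 645.3 to 1275 FPKM at 3 h and 1151 to 2216 at 12 h with overlapping groups (exact permutation p = 0.0571), and its call was lost without replicate 1 or 2 of either time (log2 fold changes of 0.88 to 0.93), under the scaling by all fragments (0.59), with voom (0.99) and in the fit on the 8 CK libraries alone (limma adjusted p = 0.278). TIP3-2 (evm_TU_scaffold_1735_49) went from 0.187 to 0.541 FPKM to between 4.86 and 15.8 (log2 fold change 4.57).

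In nitrogen metabolism, the breakdown of branched-chain amino acids, a source of electrons when sugar runs short, had 14 higher and 3 lower of 26 with a median of 1.23. Its summed level was 570, 761, 718 and 762 FPKM at 3 h and 3100, 3061, 2439 and 1071 at 12 h, the fourth library being lowest, and without it 14 were higher and 3 lower with a median of 1.41. Methylcrotonoyl-CoA carboxylase subunit alpha (evm_TU_scaffold_1269_49, chromosome 3), in leucine breakdown, was at 7.28 to 11.3 FPKM at 3 h and at 66, 63.9, 50.5 and 20.4 at 12 h (log2 fold change 2.22 ± 0.36, SE, n = 4, limma adjusted p = 1.45e-05). Glutamine synthetases, which assimilate ammonium, had 1 higher and 6 lower of 15, or 1 and 11 under the scaling by all fragments. The cytosolic isozyme 1-1 (evm_TU_scaffold_1494_212) went from 86 fragments to 0, at least 15.4-fold lower, and the main gene (evm_TU_scaffold_952_19) went from 1114 to 1314 FPKM at 3 h to between 595.0 and 784.4 at 12 h, a log2 fold change of -0.86 under the 2-fold limit that became -1.28 under the scaling by all fragments.

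Of 104 ethylene genes, 6 were called higher and 10 lower with a median of -0.19. Under the scaling by all fragments 5 were higher and 23 lower, and 10 were higher and 10 lower without the fourth library at 12 h. ACC oxidase, which releases ethylene and needs oxygen to do so, had 0 higher and 1 lower of 17. ACC oxidase 1 (evm_TU_scaffold_1340_15, chromosome 2) averaged 9.01 FPKM at 0 h, was at 2285, 1624, 1969 and 1653 at 3 h and at 1062, 1343, 732.8 and 1099 at 12 h. The groups did not overlap, but the log2 fold change of -0.85 ± 0.32 was under the 2-fold limit (SE, n = 4, limma adjusted p = 0.0483), which it passed at -1.28 under the scaling by all fragments. ACC synthase 2 (evm_TU_scaffold_10592_56), the step before it, rose from 0.529 to 2.62 FPKM to between 5.43 and 18.8, a log2 fold change of 3.26 ± 0.55 (SE, n = 4, limma adjusted p = 2.72e-05). For abscisic acid, 40 genes were higher and 43 lower of 328 (19 and 69 under the scaling by all fragments, 26 and 22 with a pseudocount of 1). The 8'-hydroxylases that break the hormone down had 0 higher and 5 lower of 12. For auxin, 19 were higher and 29 lower of 214 (13 and 58 under that scaling, 18 and 15 with a pseudocount of 1). Over all tested genes 9.54% were higher and 13.2% lower. The auxin shares were near these, as was the lower share for abscisic acid. The most abundant auxin gene, PIN5 (evm_TU_scaffold_74_138), an internal auxin carrier, had a log2 fold change of 0.81 under the 2-fold limit.

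Among the largest rises outside the lists was that of a match to the rice MADS-box transcription factor 21 (evm_TU_scaffold_2951_1, chromosome 5), at 0.741, 0.306, 0.333 and 0 FPKM at 3 h and 48.8, 58.5, 118.8 and 35.9 at 12 h. Its log2 fold change was 7.41 ± 0.97 (SE, n = 4, limma adjusted p = 3.58e-07). 10-epi-juneol synthase (evm_TU_scaffold_1336_109, chromosome 14), an enzyme of sesquiterpene synthesis in the daisy family, was at 0 in all libraries at 3 h and at 5.52, 12.3, 20.7 and 9 FPKM at 12 h, at least 24.9-fold higher by the floor of 3 fragments over the group. A match to the G-type lectin receptor kinase At4g27290 went from 0 to 0.360 FPKM to between 8.23 and 21.6. Among the largest falls was that of non-classical arabinogalactan protein 30 (evm_TU_scaffold_8801_282, chromosome 13), a cell wall protein of roots in Arabidopsis. It measured 17.4, 83.3, 33.8 and 28.2 FPKM at 3 h and 1.58, 0, 0 and 6.42 at 12 h, a log2 fold change of -5.90 ± 0.91 (SE, n = 4, limma adjusted p = 5.51e-06). Only genes without overlap could be named among these rises and falls.

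Polyphenol oxidase E (evm_TU_scaffold_448_464), which oxidises phenolics, changed by -5.14, a match to the yeast polyadenylated RNA-binding protein PUB1 (evm_TU_scaffold_6893_73) by -4.86, and the subtilisin-like protease SBT6.1 (evm_TU_scaffold_8920_160) by -4.63, all on the log2 scale. The gene with the highest mean was a 14 kDa proline-rich protein DC2.15 (evm_TU_scaffold_1644_210, chromosome 25), one of the root markers. It measured 1590, 1173, 1930 and 1151 FPKM at 3 h and 5636, 7683, 6631 and 5084 at 12 h, a log2 fold change of 2.11 ± 0.20 (SE, n = 4, limma adjusted p = 6.96e-10), and in the fit on the 8 CK libraries alone it did not pass (limma adjusted p = 0.289). The next, which has no protein name (evm_TU_scaffold_831_123), rose from a mean of 1914 to 5724 FPKM but did not pass in that fit (limma adjusted p = 0.491), and the one after it (evm_TU_scaffold_2599_140), at 1824 and 4894 FPKM, did not pass (limma adjusted p = 0.0613) except with a pseudocount of 1, with voom, and without the fourth library at 12 h (limma adjusted p of 0.0381, 2.78e-06 and 0.0499).

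The 8 libraries were then placed in the course from 0 h to 24 h. Comparisons that share libraries are set side by side here without a test. Genes called higher between 3 h and 12 h had median levels of 0.26, 0.63, 2.64 and 2.87 on the log2(FPKM + 0.1) scale at 0, 3, 12 and 24 h, and those called lower had 1.76, 1.14, -0.95 and -0.71. Over all tested genes, 11.3% passed upward and 14.2% downward at 3 h against 0 h, and 2.88% and 3.24% at 24 h against 12 h. At 24 h against 12 h, the median log2 fold change was 0.00 for small heat shock proteins, 0.08 for NAC factors and 0.00 for clock genes. It was -0.56 for the DREB list and -0.59 for ribosomal proteins, of which 79 were called lower and 7 higher.

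**Figure D3:**
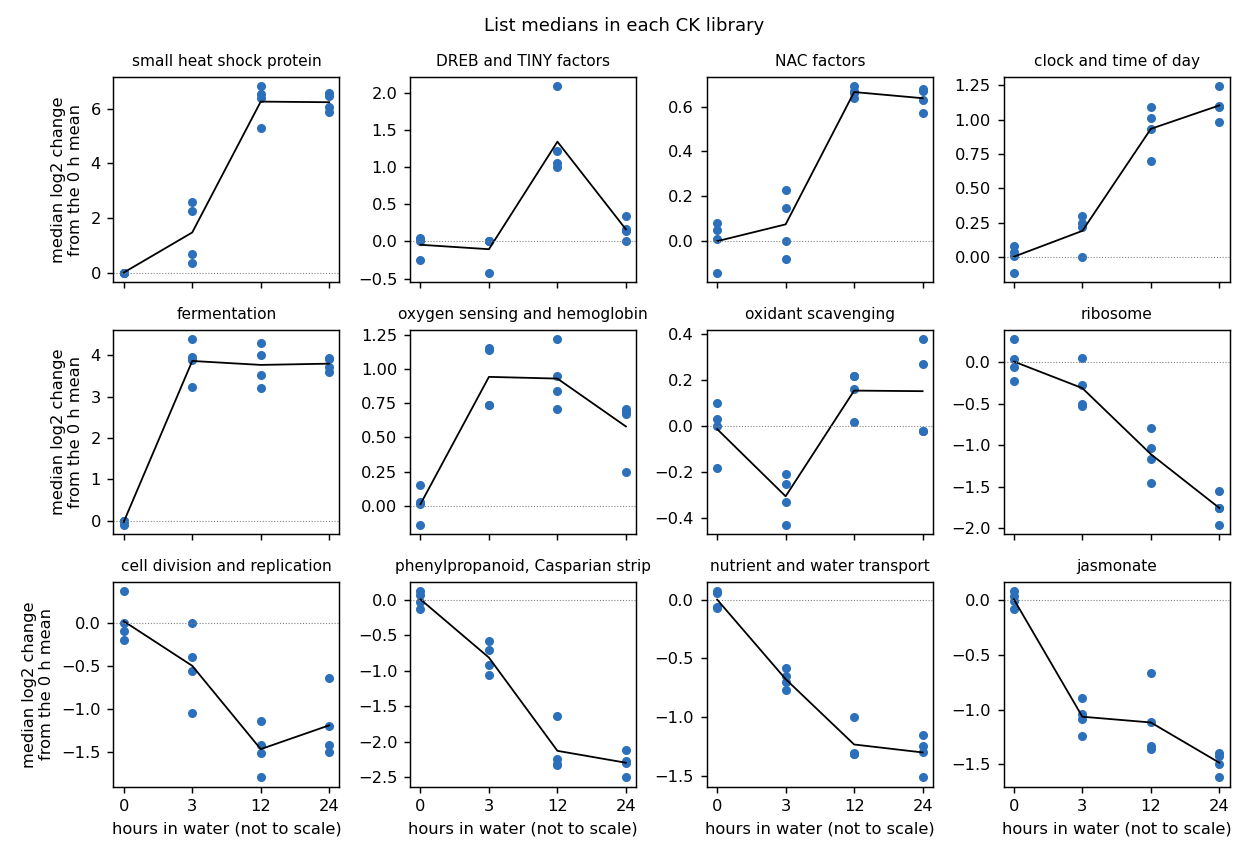
Median log2 change from the 0 h mean over the tested members of 12 gene groups, 1 point per CK library and a line through the group means, at 0, 3, 12 and 24 h in water (spacing not to scale; each panel has its own axis). Fermentation genes were at 3.22 to 4.39 by 3 h, and the DREB medians of 1.01 to 2.09 at 12 h lay above those of 0.00 to 0.34 at 24 h.

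The same interval in EWT shares no library with that in CK. In EWT, 13.6% of tested genes were called higher and 13.7% lower at 12 h. The difference of the 2 changes was tested as an interaction, and 3430 genes (3.83%) passed. The change was higher in EWT for 2214 (2.47%) and lower there for 1216 (1.36%). Of the 11207 genes called in both cultivars, 11076 had the same direction, which was 54.4% of the CK calls and 45.3% of the EWT calls. Small heat shock proteins had 126 higher and 1 lower in EWT with a median of 4.82, and in the interaction 8 of 143 passed with EWT above CK and 4 with EWT below it. Of 32 phenylalanine ammonia-lyases 26 were called lower in EWT, and in the interaction 1 passed, with EWT below CK. Of 17 Casparian strip membrane proteins 12 were called lower in EWT, and 2 passed the interaction with EWT above CK.

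Of the ethylene genes, 30 of 104 in EWT were called lower and 10 higher, against 10 and 6 in CK, and 14 passed the interaction, 11 of them with the lower change in EWT. Of all tested genes, 3.83% passed it. MADS-box transcription factor 21 changed by 0.90 in EWT, where it averaged 0 FPKM at 3 h and 0.282 at 12 h (interaction -6.50 ± 1.37 on the log2 scale, SE, n = 4 libraries a group, limma adjusted p = 0.00396). The G-type lectin receptor kinase changed by 0.69 in EWT (interaction -5.84, limma adjusted p = 0.000228). Both genes were named for the size of their rise in CK, which enters the interaction, so these p-values give no independent support.

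**Figure D4:**
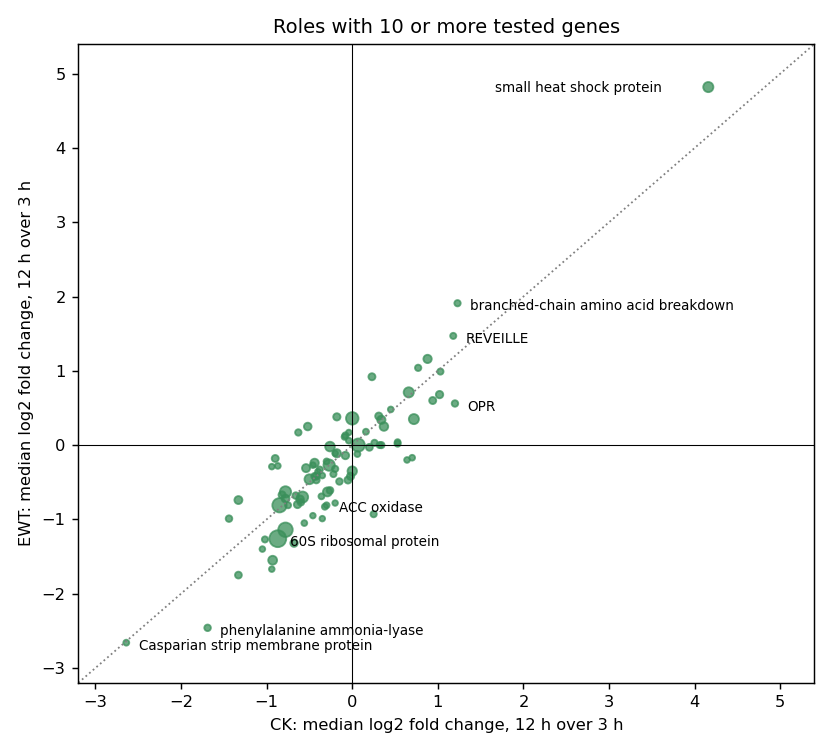
Median log2 fold change from 3 h to 12 h in CK (x axis) and in EWT (y axis) for the gene roles with 10 or more tested members, with point size by number of members and a dotted line of equal change. Small heat shock proteins lay at 4.16 and 4.82, Casparian strip membrane proteins at -2.64 and -2.66, and oxophytodienoate reductases at 1.20 and 0.56.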

How the data were processed

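Per the study's methods and the submitters' processing notes, mRNA was selected by its poly(A) tail, reads were trimmed with fastp and mapped with HISAT2 2.0.5, and fragments were counted with featureCounts 1.5.0-p3. The genome build, strand setting and treatment of shared reads were not given in the sources used here. What the authors deposited was a table of FPKM for 178540 genes in 40 libraries, with gene lengths and protein names for 106614. Whole fragments were recovered from FPKM and length, and the deposited library sizes were median-of-ratios factors, not fragment totals.

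The 89517 genes that reached 1 FPKM in 4 or more libraries entered limma 3.58.1 in R 4.3.3, with an intensity trend, on log2(FPKM + 0.1) over all 40 libraries. Calls needed a Benjamini-Hochberg adjusted p no higher than 0.05 and a change of 2-fold or more. Fold changes are on the log2(FPKM + 0.1) scale, which understates those of low genes. A group at 0 was bounded with a floor of 3 fragments over the group. Between 3896104 and 6716210 fragments on genes per library limit the precision. The study's own differential tests were made with other software on counts, and no such results were used.

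Genes were named by a rule: the highest mean and the largest called rise and fall in each role list and over all genes. Over all genes, the rises and falls needed a protein name, no overlap between the groups and a minimum mean level. Only some of the genes that the rule takes are named. The members and lists were chosen with earlier results of these data known. The fit was tested on simulated data with changes set only in genes with many fragments, so the recovery of low genes was not tested. Alternatives were the pseudocount, filter, scaling, voom on recovered fragments, a replicate block, the 8 libraries alone, the thresholds, and each library left out. Replicate numbers did not pair the libraries.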

Additional observations from a re-analysis of the deposited data

Results flagged for a closer look

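Among 162 groups of 4 values, 18 had 1 library apart from the rest by Dixon's test on the FPKM or list medians. A group with fragments in a single library is set apart by construction. The chance rate of about 1 in 20 groups is therefore no benchmark here. Several of the 18 were low genes with fragments in a single library: pyruvate decarboxylase 2 at 0.1443 FPKM, DREB2B at 0.2895 and the 17.3 kDa heat shock protein at 0.5568 in the second library at 3 h. The same held at 12 h for enolase at 0.4464 FPKM in the first library, and for Heat shock 70 kDa protein 16 at 0.1614 and Peroxidase 64 at 0.3739 in the fourth. At higher levels, WRKY 40 was at 858.4 FPKM in the second library at 12 h, REVEILLE 6 at 73.35 in the first at 12 h, the H2A variant at 273.8 and glutamine synthetase at 1114 in the fourth at 3 h, and polyphenol oxidase E at 44.49 in the second at 3 h.

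Of list medians relative to 0 h (log2), the fourth library at 12 h stood apart for heat shock genes at 0.79, phenylpropanoid and Casparian strip genes at -1.63, auxin at -0.54 and transport at -1.0. Elsewhere glycolysis was at 0.06 in the first library at 12 h, DREB factors at -0.42 in the fourth at 3 h, and auxin at -0.31 in the second at 3 h.

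For 9 named genes the change from 3 h to 12 h passed limma's interaction test between the cultivars. They were named for a large rise or fall in CK, and that change enters the test. Their passing is therefore no independent evidence of a difference between the cultivars. The change in EWT minus that in CK, on the log2 scale, was -6.50 for MADS-box transcription factor 21, -5.84 for the G-type lectin receptor kinase, -3.24 for GAPC2 and -2.57 for ELF4-LIKE 1. It was 4.86 for the PUB1 match, 4.39 for arabinogalactan protein 30, 4.10 for SBT6.1, 3.77 for enolase and 3.69 for glutamine synthetase 1-1.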

How the results depend on the processing

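Every alternative kept a large number of genes called between 3 h and 12 h, but the balance of rises and falls moved. Against 8538 genes higher and 11806 lower, a fold of at least 4 left 9034 genes (3898 higher, 5136 lower). A pseudocount of 1 left 12246 (6677 higher, 5569 lower), and the 8 CK libraries alone 12554 (6309 higher, 6245 lower). Voom gave 9737 higher and 9535 lower. The share of calls that were higher was 54.5% with a pseudocount of 1, 50.3% with the 8 libraries and 50.5% with voom. Scaling by all fragments gave 5465 higher and 19340 lower, 22% of calls higher in place of 42%. For the difference between the cultivars, 3430 genes became 13068 with the unadjusted p (8057 higher, 5011 lower in EWT), 5787 with a pseudocount of 1 (3765 and 2022) and 2061 with one of 0.01 (1290 and 771), and a fold of at least 4 left 730 lower. Lists with more genes higher than lower numbered 8, against 13 with a pseudocount of 1 and 5 under the scaling by all fragments. That scaling turned the median of fermentation to -0.03, oxygen sensing to -0.27, oxidant scavenging to -0.01 and nitrogen remobilisation to -0.10, and the sucrose synthase gene to -0.32. Voom turned glycolysis to 0.03. The causes were not tested.

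Leaving out 1 library at a time gave 17700 to 22101 genes called in CK and 2514 to 3696 for the difference between the cultivars, and -0.01 to 0.16 for the sucrose synthase gene. Replicate numbers did not pair the libraries (correlations of deviations from -0.033 to 0.038 over all number pairs), and with the replicate number as a block 20261 genes were called in CK and 3353 for the difference between the cultivars, with no named gene's call changed. Of the named genes, 4 lost their call under the scaling by all fragments and 7 in the fit on the 8 libraries alone. The smaller number of fragments on genes at 12 h limits the low genes most.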

Other observations

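By the authors' transcription factor families, which the lists above do not use, several groups that act on chromatin had more genes lower than higher at 12 h. SET domain proteins, which methylate histones, had 22 called lower and 2 higher of 78 tested with a median log2 fold change of -0.84. SNF2 remodellers had 31 lower and 5 higher, SWI/SNF-BAF60b proteins 11 lower and 0 higher of 44, and PHD finger proteins 11 lower and 1 higher of 79. Trihelix factors had 18 lower and 3 higher of 73, and LOB domain factors, some of which act in lateral root formation, 10 lower and 1 higher of 54. The ERF branch of AP2/ERF had 46 higher and 14 lower of 302, and bZIP factors 18 higher and 8 lower of 150. These families were picked after their values were seen, beside 9.54% higher and 13.2% lower over all tested genes. They were counted on the deposited scale only.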
